A study of Mus musculus with 8 samples.

Results

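The 44 genes described here make, modify, store and bind fatty acids, or mark and regulate the sebocyte, the lipid-filled cell of the sebaceous gland. They were chosen by symbol from the 46517 genes of a mouse expression table, not by a rule on their values. Earlier results of these data were known when they were chosen. A set of 39 of them was expressed highly enough to be tested, among 15434 genes tested in all, and the other 5 (Thrsp, Fads2, Plin5, Fabp4 and Mc5r) never exceeded 0.82 TPM. TPM is a length-scaled share of the mRNA of a library, which sums to the same total in each.

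Fatty acids are built from cytosolic acetyl-CoA by ATP citrate lyase, acetyl-CoA carboxylase and fatty acid synthase. They are then lengthened by elongases (Elovl), given double bonds by desaturases (Scd, Fads) and joined to coenzyme A by acyl-CoA synthetases. In skin, sebocytes turn such chains into wax esters, triglycerides and sterol esters and fill their droplets with them, under the nuclear receptor gene Pparg, while keratinocytes use long and hydroxylated chains for barrier lipids. The sebaceous gland opens into the hair follicle above the bulge, where the hair follicle stem cells lie.

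Hair follicle stem cells were sorted from the backs of male mice aged 70 days after birth, in the second telogen, the resting phase of the hair cycle, and their RNA was sequenced. The study asked what the loss of NFIB and NFIX, both nuclear factor I transcription factors, does in these cells. Each of the 4 genotypes had 2 libraries, each with an animal number of its own in its title. P-values measure the spread between these libraries, which were taken as separate animals.

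The NFIB/X-dKO mice (animals 33 and 36) carried the Sox9-CreER transgene with both Nfib and both Nfix alleles floxed. The NFIB-cKO mice (81 and 85) carried it with floxed Nfib, and the NFIX-cKO mice (32 and 88) carried it with both Nfix alleles and 1 Nfib allele floxed. The WT mice (34 and 82) had floxed Nfib and Nfix alleles and no Cre in their label, and the protocol calls them littermates without naming litters. All groups had the floxed R26-YFP reporter, and recombination depended on cells that use the Sox9 promoter. Sorting took cells negative for DAPI and Sca-1 and positive for integrin alpha 6 and CD34. Knockout cells were also gated on YFP, whereas WT cells were not, so gate and genotype cannot be told apart. The time of Cre induction was not given in the sources used here. Throughout, the values of a group are given in the order of the animal numbers above.

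Of the stem cell markers, Cd34, which the sort selects, stood between 811 and 1144 TPM in all 8 libraries, and the keratin gene Krt15 between 7507 and 14487 TPM. The 10 stem cell markers summed to 9018 and 10255 TPM in NFIB/X-dKO, 15119 and 10670 in NFIB-cKO and 15796 and 16566 in NFIX-cKO, against 15583 and 14085 TPM in WT. Of the 10, Krt24, Lhx2, Lgr5 and Foxc1 fell in NFIB/X-dKO against WT, where 1.26% of all genes tested fell. The lowest difference was -3.82 for Krt24 (limma adjusted p = 0.00102). Krt24 also fell in NFIB-cKO (-2.80, limma adjusted p = 0.00505), where 0.428% of all genes tested fell. Nfib had 377 and 389 TPM in NFIB/X-dKO, 293 and 233 in NFIB-cKO and 199.97 and 148 in NFIX-cKO, against 230 and 209 TPM in WT, and Nfix lay between 123 and 158 TPM in all libraries. The deleted part of each gene is not named in the labels, so these totals do not check the genotypes. Expected counts were held for 5 libraries, which summed to between 57173266 and 66854625, and the depth of NFIB-cKO 81 and both WT libraries is unknown. The animal numbers fall into the 30s (both NFIB/X-dKO, NFIX-cKO 32, WT 34) and the 80s (both NFIB-cKO, NFIX-cKO 88, WT 82). With group in the fit, 498 genes were higher and 1937 lower in the 80s than in the 30s, by limma at an adjusted p under 0.05. Among the lipid genes Dgat1 and Fa2h were higher, and Acaca, Gpam, Plin3 and Acsl1 lower, in the 80s. Each comparison of NFIB/X-dKO with NFIB-cKO is therefore also one of 30s with 80s, and the genotype and the decade cannot be told apart there.

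Promoter sequence is shown for 4 of the genes that fell, since several of them moved together. Each stretch is the 250 bases before the start in RefSeq (build GRCm38.p6), read 5′ to 3′ on the strand of the gene. Of the 14 genes that fell in NFIB/X-dKO, 9 had an entry, and those printed have 1 entry each, lie within 31 bases of the annotated gene start and hold TTGGC. The entries of Awat1, Far2 and Plin2, which also fell, hold no TTGGC and are not printed. Capitals mark TTGGC, the half-site letters of nuclear factor I, or GCCAA, the same on the other strand, and, in Elovl5, also CACGTG. The Soat1 stretch, for the sterol O-acyltransferase, is chr1:156474329-156474578 on the minus strand, and that of the acyl-CoA synthetase gene Acsbg1 is chr9:54661886-54662135, also minus. Those of the elongase genes Elovl5 and Elovl6 are chr9:77917115-77917364 and chr3:129532136-129532385, both plus.
Acsbg1: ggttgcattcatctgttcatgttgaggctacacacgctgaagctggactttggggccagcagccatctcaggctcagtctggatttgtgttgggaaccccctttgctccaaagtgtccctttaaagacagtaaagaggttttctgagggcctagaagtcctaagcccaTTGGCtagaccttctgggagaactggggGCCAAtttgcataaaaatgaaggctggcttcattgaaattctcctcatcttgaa
Elovl5: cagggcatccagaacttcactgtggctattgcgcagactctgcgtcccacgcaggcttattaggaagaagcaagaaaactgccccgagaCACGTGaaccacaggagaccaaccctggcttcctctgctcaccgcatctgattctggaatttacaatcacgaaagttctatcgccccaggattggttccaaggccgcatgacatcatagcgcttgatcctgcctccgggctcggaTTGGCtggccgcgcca
Elovl6: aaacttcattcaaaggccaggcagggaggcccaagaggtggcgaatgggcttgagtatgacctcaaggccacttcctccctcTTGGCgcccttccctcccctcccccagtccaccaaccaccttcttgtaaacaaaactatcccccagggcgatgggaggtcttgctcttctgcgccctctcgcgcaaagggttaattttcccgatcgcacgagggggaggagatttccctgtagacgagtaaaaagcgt
Soat1: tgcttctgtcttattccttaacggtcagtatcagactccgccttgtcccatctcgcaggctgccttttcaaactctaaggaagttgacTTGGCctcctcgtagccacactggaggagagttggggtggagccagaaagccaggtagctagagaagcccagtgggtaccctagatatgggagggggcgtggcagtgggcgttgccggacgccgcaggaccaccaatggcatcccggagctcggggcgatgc
TTGGC began 82 and 54 bases before the start in Acsbg1, 16 in Elovl5, 168 in Elovl6 and 162 in Soat1. Some genes have several entries, so shares are counted per entry: the 9 genes that fell have 11 entries, and 24 of the other lipid genes have 32. On either strand TTGGC was in 8 of the 11 and in 19 of the 32, against 41.5% of 32851 promoters of this length. Pparg has several entries, each with TTGGC. Counted by gene, 6 of the 9 that fell and 15 of the 24 others had it. The full palindromic site, in which GCCAA follows TTGGC after a gap, was in 0 of the 11 and 0 of the 32, against 0.0365% of promoters. ATTGG, the CCAAT box on the other strand, can overlap TTGGC and does so in Acsbg1 and Elovl5. It was in 7 of 11 and 17 of 32, against 33.8%. CACGTG, an E-box, was in 1 of 11 and 0 of 32, against 6.02%, and TCACCCCA, letters of a sterol regulatory element, in 0 of 11 and 3 of 32, against 1.34%. These are letter matches only, and binding was not measured here.

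In NFIB/X-dKO cells, 14 of the 39 lipid genes fell relative to WT and 0 rose, by limma on log2(TPM + 1) with Benjamini-Hochberg adjustment over all genes tested. That is 35.9% of them, while 1.26% of all genes tested fell, 1.62% rose and 2.88% did either. The 14 are Fa2h, Elovl3, Cidea, Scd1, Far2, Awat1, Soat1, Acsbg1, Cd36, Elovl6, Pparg, Fabp5, Plin2 and Elovl5. Their means in NFIB/X-dKO lay between 1.03% and 48.7% of the WT mean. The median log2 difference of the lipid genes was -0.79, against 0.16 for all genes tested. With median-of-ratios scaling these medians were -0.96 and 0.01, and the genes called over the whole table split into 246 lower and 204 higher, against 195 and 250 on TPM as deposited. In bulk RNA, fewer cells of a type and less RNA per cell cannot be told apart.

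**Figure D1:**
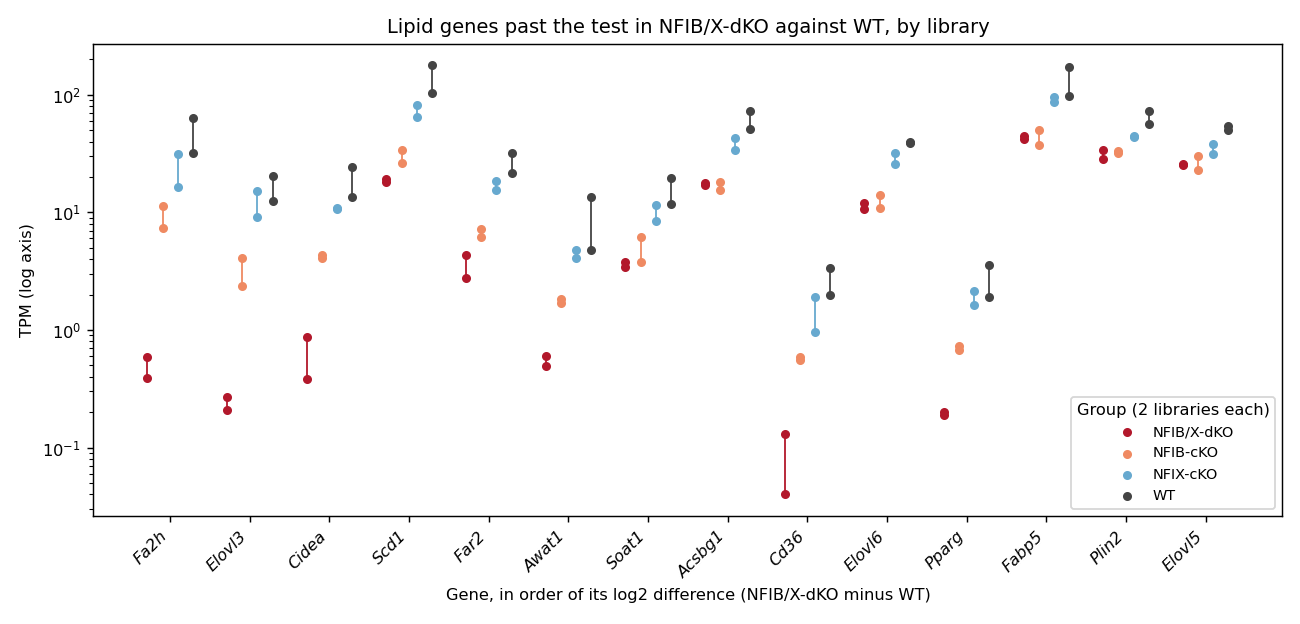
TPM (logarithmic axis) of the 14 lipid genes past the test in NFIB/X-dKO against WT, with 1 point per library, a line joining the 2 libraries of a group, and for each gene the groups NFIB/X-dKO, NFIB-cKO, NFIX-cKO and WT side by side. For each gene all 4 libraries of NFIB/X-dKO and NFIB-cKO lie below all 4 of NFIX-cKO and WT, as holds for 2.11% of all genes tested. The genes were chosen by their difference between NFIB/X-dKO and WT, which favours this. Fa2h in NFIB/X-dKO lies at 0.39 and 0.59 TPM.

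Of the 5 tested genes of de novo synthesis, 0 passed in NFIB/X-dKO against WT. Acly, the ATP citrate lyase, had 72.5 and 76.7 TPM in NFIB/X-dKO, 61.4 and 62.8 in NFIB-cKO and 65.1 and 61.2 in NFIX-cKO, against 74.7 and 71.8 TPM in WT. Its groups overlapped, with a log2 difference of 0.03 ± 0.11 (SE) between NFIB/X-dKO and WT (limma adjusted p = 0.908). Fasn, the fatty acid synthase, had 38.2 and 39.9 TPM in NFIB/X-dKO, 39.8 and 42.7 in NFIB-cKO and 49.8 and 44.2 in NFIX-cKO, against 56.1 and 83.2 TPM in WT. Every NFIB/X-dKO and NFIB-cKO library was below every other one, as held for 2.11% of all genes tested. The difference from WT in NFIB/X-dKO, -0.79 ± 0.19, did not pass (limma adjusted p = 0.0918). Me1, the malic enzyme that supplies NADPH for synthesis, had 9.31 and 7.87 TPM in NFIB/X-dKO, 4.88 and 5.72 in NFIB-cKO and 20.3 and 9.79 in NFIX-cKO, against 19.7 and 17.9 TPM in WT. Its lowest levels were in NFIB-cKO, and about 22.9% of its 50-base words also occur in other genes, so its counts are uncertain. Acaca and Acacb, the acetyl-CoA carboxylases, ranged from 7.09 to 15.9 and from 2.02 to 7.08 TPM. Acaca shares 30.4% of its words with other genes.

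Among the desaturases Scd1 fell and the others did not pass. Scd1, the main stearoyl-CoA desaturase of sebaceous glands, had 18.2 and 19.1 TPM in NFIB/X-dKO, 26.5 and 33.7 in NFIB-cKO and 81.5 and 64.6 in NFIX-cKO, against 103 and 178 TPM in WT. The groups stood apart in that order without overlap, and NFIB/X-dKO differed from WT by -2.79 ± 0.27 on the log2(TPM + 1) scale (limma adjusted p = 0.00501). Scd2, the isoform widely used outside liver and sebaceous gland, had 28.7 and 38.5 TPM in NFIB/X-dKO, 30.9 and 28.1 in NFIB-cKO and 25.2 and 8.88 in NFIX-cKO, against 9.79 and 19.9 TPM in WT. All 4 libraries with both Nfib alleles floxed under Cre were above the other 4, as held for 6.84% of all genes tested. The difference between NFIB/X-dKO and WT, 1.19 ± 0.48, did not pass (limma adjusted p = 0.28). Within the 30s, against WT 34 alone, it was 1.67 and passed (limma adjusted p = 0.0437). Scd3, a sebocyte desaturase, stood at 1.61 and 0.83 TPM in NFIB/X-dKO, 2.25 and 2.42 in NFIB-cKO and 7.44 and 7.92 in NFIX-cKO, against 4.81 and 19.1 TPM in WT, with a difference of -2.31 ± 0.52 (limma adjusted p = 0.075). The 3 genes lie close together on chromosome 19 (mm10), with Scd3 at 44203269 to 44244016, Scd2 at 44293674 to 44306864 and Scd1 at 44394455 to 44407879. They share 50-base words (4.56% of those of Scd1 and 6.54% of those of Scd3), so counts may be split between them. In all 9 of the 44 lipid genes lie on chromosome 19, or 20.5%, against 3.19% of the genes tested. Fads1 ranged from 3.2 to 10.5 TPM. Fads3, the other gene higher in all 4 of these libraries, had 4.83 and 4.39 TPM in NFIB/X-dKO, 8.76 and 4.84 in NFIB-cKO and 0.98 and 4.09 in NFIX-cKO, against 1.24 and 1.46 TPM in WT. NFIX-cKO 88 came near the others, and the difference between NFIB/X-dKO and WT, 1.26 ± 0.45, did not pass (limma adjusted p = 0.227).

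Of the 4 elongases, 3 fell. Elovl3, which makes very long saturated and monounsaturated chains in sebaceous glands and brown fat, had 0.21 and 0.27 TPM in NFIB/X-dKO, 2.35 and 4.11 in NFIB-cKO and 9.15 and 15.2 in NFIX-cKO, against 12.5 and 20.4 TPM in WT. It stood at 1.46% of the WT mean in NFIB/X-dKO, with NFIX-cKO and WT overlapping and the other groups apart, and a difference of -3.77 ± 0.34 (limma adjusted p = 0.00428). Elovl6, which lengthens palmitate to stearate, had 12.1 and 10.6 TPM in NFIB/X-dKO, 14.1 and 10.95 in NFIB-cKO and 31.8 and 26.0 in NFIX-cKO, against 39.7 and 38.6 TPM in WT. The libraries formed a low and a high set with nothing between 14.1 and 26.0 TPM, and NFIB/X-dKO differed from WT by -1.70 ± 0.18 (limma adjusted p = 0.00612). Elovl5, which lengthens polyunsaturated chains, had 25.5 and 25.6 TPM in NFIB/X-dKO, 29.96 and 23.2 in NFIB-cKO and 37.9 and 31.2 in NFIX-cKO, against 50.1 and 54.8 TPM in WT. Its fall was smaller, to 48.7% of the WT mean (-1.01 ± 0.17, limma adjusted p = 0.0304). Elovl7 ranged from 4.81 to 9.91 TPM, its groups overlapped and it did not pass.

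Of the 5 genes for acyl-CoA synthetases, Acsbg1 fell. This bubblegum-family synthetase activates long chains and had 17.9 and 17.3 TPM in NFIB/X-dKO, 15.5 and 18.1 in NFIB-cKO and 42.7 and 33.9 in NFIX-cKO, against 51.2 and 72.9 TPM in WT. NFIB/X-dKO and NFIB-cKO were at one level, and NFIB/X-dKO differed from WT by -1.74 ± 0.21 (limma adjusted p = 0.00905). Acsl5, the most abundant of the 5, had 99.1 and 90.2 TPM in NFIB/X-dKO, 71.9 and 77.8 in NFIB-cKO and 74.7 and 68.4 in NFIX-cKO, against 56.1 and 68.8 TPM in WT. It was highest in NFIB/X-dKO without overlap with WT, and the difference of 0.60 ± 0.14 did not pass (limma adjusted p = 0.0874). Acsl1, Acsl3 and Acsl4 ranged from 9.26 to 27.1, from 19.5 to 31.5 and from 8.96 to 12.5 TPM.

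Of the 5 hydroxylation, fatty alcohol and wax genes, 3 fell, among them the gene with the largest log2 difference of the 39. Fa2h, the fatty acid 2-hydroxylase, had 0.39 and 0.59 TPM in NFIB/X-dKO, 7.4 and 11.4 in NFIB-cKO and 16.6 and 31.2 in NFIX-cKO, against 32.1 and 63.3 TPM in WT. The groups stood in steps without overlap, and the NFIB/X-dKO mean was 1.03% of the WT mean (-4.96 ± 0.41, limma adjusted p = 0.0028). In expected counts Fa2h had 25 and 49 in the NFIB/X-dKO libraries. Far2, which reduces fatty acyl chains to the alcohols of waxes, had 4.34 and 2.77 TPM in NFIB/X-dKO, 6.12 and 7.22 in NFIB-cKO and 15.5 and 18.5 in NFIX-cKO, against 21.5 and 32.04 TPM in WT, a difference of -2.60 ± 0.26 between NFIB/X-dKO and WT (limma adjusted p = 0.00552). Its relative Far1, active in many tissues, had 75.8 and 72.1 TPM in NFIB/X-dKO, 57.4 and 43.8 in NFIB-cKO and 60.4 and 46.1 in NFIX-cKO, against 63.0 and 40.5 TPM in WT, and did not pass (0.54 ± 0.25, limma adjusted p = 0.323). The reductases thus differed in what passed, while the difference between them was not tested. Awat1, an acyl-CoA wax alcohol acyltransferase, had 0.60 and 0.49 TPM in NFIB/X-dKO, 1.7 and 1.82 in NFIB-cKO and 4.09 and 4.81 in NFIX-cKO, against 4.8 and 13.6 TPM in WT. WT 82 stood far above WT 34, which was level with NFIX-cKO, and NFIB/X-dKO differed from WT by -2.57 ± 0.40 (limma adjusted p = 0.0235). Awat2 ranged from 1.54 to 7.38 TPM and did not pass.

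Of the 6 glycerolipid and sterol ester genes, Soat1 fell. This sterol O-acyltransferase had 3.43 and 3.76 TPM in NFIB/X-dKO, 3.79 and 6.15 in NFIB-cKO and 11.6 and 8.39 in NFIX-cKO, against 11.9 and 19.7 TPM in WT, a difference of -1.83 ± 0.31 between NFIB/X-dKO and WT (limma adjusted p = 0.0293). The enzymes of the last triglyceride step are encoded by Dgat1 and Dgat2. Dgat1 had 31.0 and 32.4 TPM in NFIB/X-dKO, 44.1 and 44.4 in NFIB-cKO and 32.2 and 46.2 in NFIX-cKO, against 36.5 and 52.5 TPM in WT. Dgat2 had 27.7 and 28.6 TPM in NFIB/X-dKO, 20.6 and 29.7 in NFIB-cKO and 35.1 and 20.4 in NFIX-cKO, against 33.5 and 31.96 TPM in WT. For both, NFIB/X-dKO lay below WT and the 4 libraries of NFIB/X-dKO and NFIB-cKO overlapped the other 4. Neither passed (-0.45 ± 0.22, limma adjusted p = 0.355, for Dgat1 and -0.21 ± 0.27, limma adjusted p = 0.677, for Dgat2 in NFIB/X-dKO against WT), nor did Gpam, Agpat2 and Lpin1, which act earlier on the way to triglyceride and ranged from 4.87 to 10.1, from 22.8 to 33.02 and from 1.88 to 4.21 TPM.

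Of the 3 tested droplet genes, Cidea and Plin2 fell. Cidea, which fuses and enlarges lipid droplets, had 0.87 and 0.38 TPM in NFIB/X-dKO, 4.12 and 4.35 in NFIB-cKO and 10.7 and 10.8 in NFIX-cKO, against 13.5 and 24.4 TPM in WT. It fell to 3.3% of the WT mean in NFIB/X-dKO (-3.58 ± 0.29, limma adjusted p = 0.0028). Plin2, a perilipin that coats droplets in most cells, had 33.8 and 28.3 TPM in NFIB/X-dKO, 32.2 and 33 in NFIB-cKO and 45.01 and 43.5 in NFIX-cKO, against 55.9 and 73.1 TPM in WT, a difference of -1.02 ± 0.17 between NFIB/X-dKO and WT (limma adjusted p = 0.0273). Plin3, a perilipin of small droplets, had 74.9 and 77.3 TPM in NFIB/X-dKO, 58.5 and 50.1 in NFIB-cKO and 78.7 and 58.0 in NFIX-cKO, against 70.9 and 47.1 TPM in WT, and did not pass.

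The uptake and binding genes Fabp5 and Cd36 fell. Fabp5, the epidermal fatty acid binding protein, had 44.4 and 42.4 TPM in NFIB/X-dKO, 37.3 and 49.8 in NFIB-cKO and 96.2 and 86.6 in NFIX-cKO, against 96.8 and 173 TPM in WT. WT 34 was level with NFIX-cKO 32, and NFIB/X-dKO differed from WT by -1.56 ± 0.27 (limma adjusted p = 0.0333). Cd36, the fatty acid translocase, had 0.13 and 0.04 TPM in NFIB/X-dKO, 0.56 and 0.59 in NFIB-cKO and 0.96 and 1.91 in NFIX-cKO, against 1.98 and 3.37 TPM in WT (-1.74 ± 0.29, limma adjusted p = 0.0299). It was low throughout, with 15 and 4 expected counts in the NFIB/X-dKO libraries.

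Among the regulators and sebocyte markers Pparg fell. It had 0.19 and 0.2 TPM in NFIB/X-dKO, 0.67 and 0.73 in NFIB-cKO and 2.14 and 1.64 in NFIX-cKO, against 1.92 and 3.55 TPM in WT (-1.61 ± 0.27, limma adjusted p = 0.0293). Its NFIB/X-dKO libraries held 12 and 13 expected counts. Srebf1, which encodes the transcription factor SREBP1 of fatty acid synthesis, had 60.2 and 67.1 TPM in NFIB/X-dKO, 62.3 and 61.9 in NFIB-cKO and 65.5 and 44.2 in NFIX-cKO, against 61.9 and 77.7 TPM in WT. It overlapped between groups, with a difference of -0.12 ± 0.21 between NFIB/X-dKO and WT (limma adjusted p = 0.745). Mgst1, a microsomal glutathione transferase gene that single-cell studies use as a sebocyte marker, had 314 and 324 TPM in NFIB/X-dKO, 246 and 218 in NFIB-cKO and 260.0 and 256 in NFIX-cKO, against 243 and 239 TPM in WT. At these levels in every library it did not follow the other sebocyte genes, and its difference of 0.40 ± 0.11 did not pass (limma adjusted p = 0.132). Prdm1, which encodes the repressor BLIMP1, ranged from 1.63 to 5.38 TPM and did not pass.

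**Figure D2:**
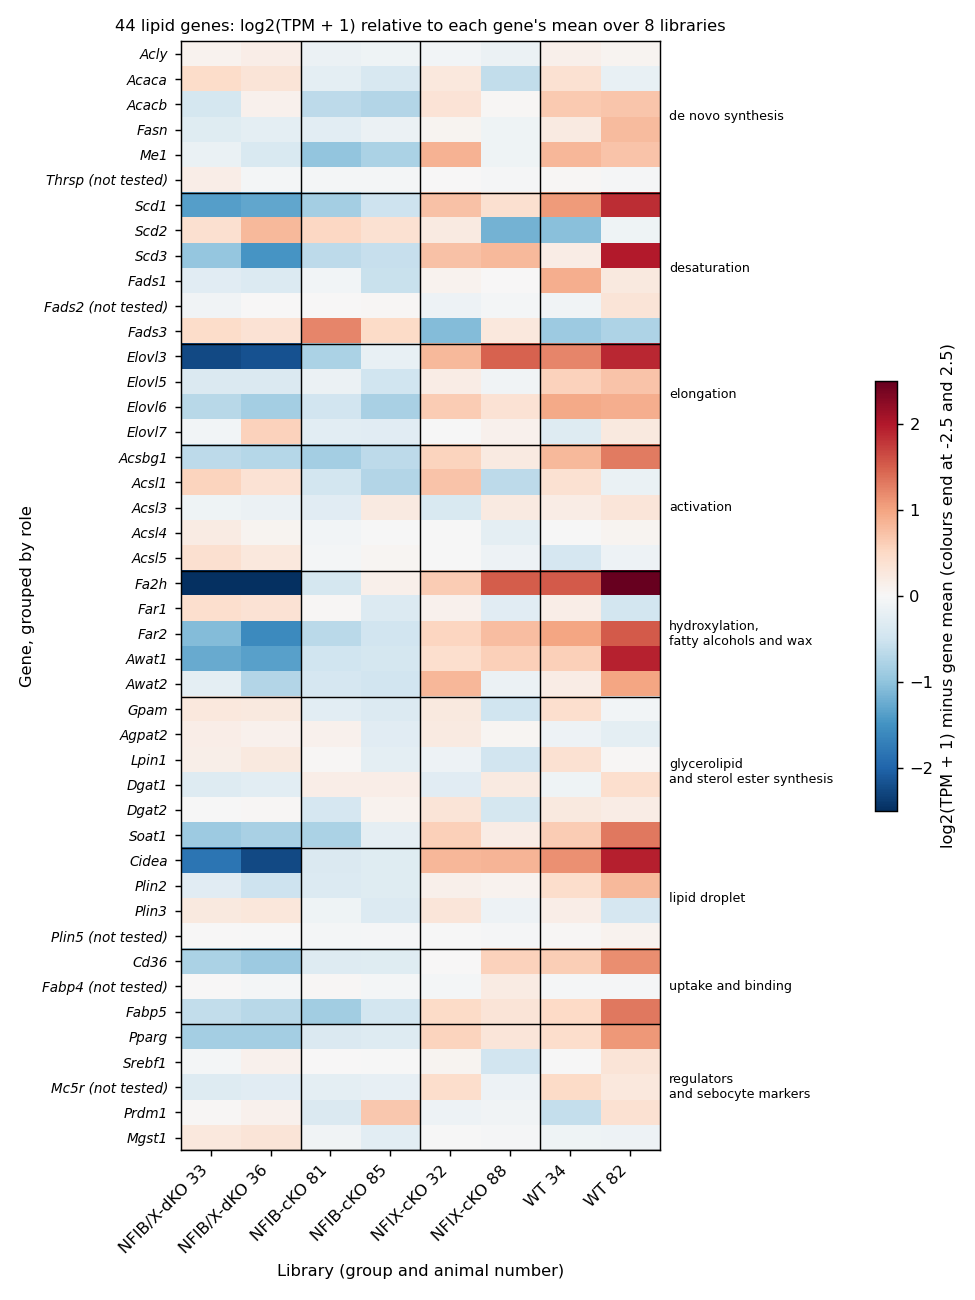
Level of each of the 44 lipid genes (rows, by role) in each of the 8 libraries (columns, from NFIB/X-dKO to WT), as log2(TPM + 1) minus the mean of that gene over the libraries, with blue below and red above that mean. Fa2h, Elovl3 and Cidea are darkest blue in the NFIB/X-dKO columns, while Acly, Srebf1 and Mgst1 stay pale in every column.

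The WT libraries differed between themselves. WT 82 was higher than WT 34 for 13 of the 14 genes, with ratios between 0.974 and 2.82 and a median of 1.68, against a median of 0.836 over all genes tested. NFIX-cKO 88 was above NFIX-cKO 32 for 6 of the 14. Within the 30s, NFIB/X-dKO 33 and 36 against WT 34 alone kept 10 of the 14 calls, and those of Elovl5, Fabp5, Plin2 and Soat1 ended. The lone WT library was there taken to vary like the others. The calls of Fa2h and Cidea held under each of the 15 alternatives run for this comparison. Without WT 82 the count of lipid genes that fell was 8, without NFIB-cKO 81 or 85 it was 7, without NFIB/X-dKO 33 it was 4 and without NFIB/X-dKO 36 it was 2.

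In NFIB-cKO cells, 5 of the 39 fell relative to WT and 0 rose, while 0.428% of all genes tested fell, 0.292% rose and 0.719% passed in either direction. They were Acsbg1 (-1.80 ± 0.21, limma adjusted p = 0.0179), Elovl6 (-1.58 ± 0.18, limma adjusted p = 0.0178) and Scd1 (-2.14 ± 0.27, limma adjusted p = 0.0229), with Far2 (-1.83 ± 0.26, limma adjusted p = 0.0347) and Cidea (-1.87 ± 0.29, limma adjusted p = 0.0492). Fa2h and Elovl3 had differences of like size that did not pass. Fa2h was at -2.18 ± 0.41 (limma adjusted p = 0.0791) and Elovl3 at -2.04 ± 0.34 (limma adjusted p = 0.0623). With the decade as a covariate both passed, Fa2h at -2.64 (limma adjusted p = 0.0135) and Elovl3 at -2.37 (limma adjusted p = 0.0197), and so did Awat1, Cd36 and Plin2, for 10 in all. Calls over the whole table rose too, and 3016 genes were then at an unadjusted limma p under 0.05, against 1952 without the covariate. The median difference of the lipid genes was -0.72, against 0.00 for all genes tested, and 84.6% of them were below 0, against 49.1%. Against WT 82 alone, the WT library of the same decade, Scd1 and Acsbg1 kept their calls and Awat1 gained one. With median-of-ratios scaling the calls of Cidea, Far2 and Scd1 ended, and 0 lipid genes passed when NFIB-cKO 81 or 85 or NFIB/X-dKO 33 or 36 was left out.

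In NFIX-cKO cells, 0 of the 39 passed against WT by limma, 8 (20.5%) were at an unadjusted p under 0.05, all of them lower, against 6.81% of all genes tested in either direction. By the adjusted p, 0.0648% of all genes tested fell, 0.0842% rose and 0.149% did either. The smallest adjusted p among them was 0.528, for Elovl5 (-0.59 ± 0.17). The median difference was -0.34, against -0.05 for all genes tested, and 76.9% of the lipid genes were below 0, against 58.3%. For the 14 genes that fell in NFIB/X-dKO, the NFIX-cKO mean was between 48.5% and 74.0% of the WT mean, and the NFIB-cKO mean between 19.2% and 50.6%. These comparisons share the WT libraries, and the 14 genes were chosen for WT values above NFIB/X-dKO, which favours low shares of the WT mean. Set against WT 34 alone, the NFIX-cKO mean was near level for some, such as Pparg (1.89 against 1.92 TPM). For others it stayed lower, such as Scd1 (73.1 against 103 TPM).

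**Figure D3:**
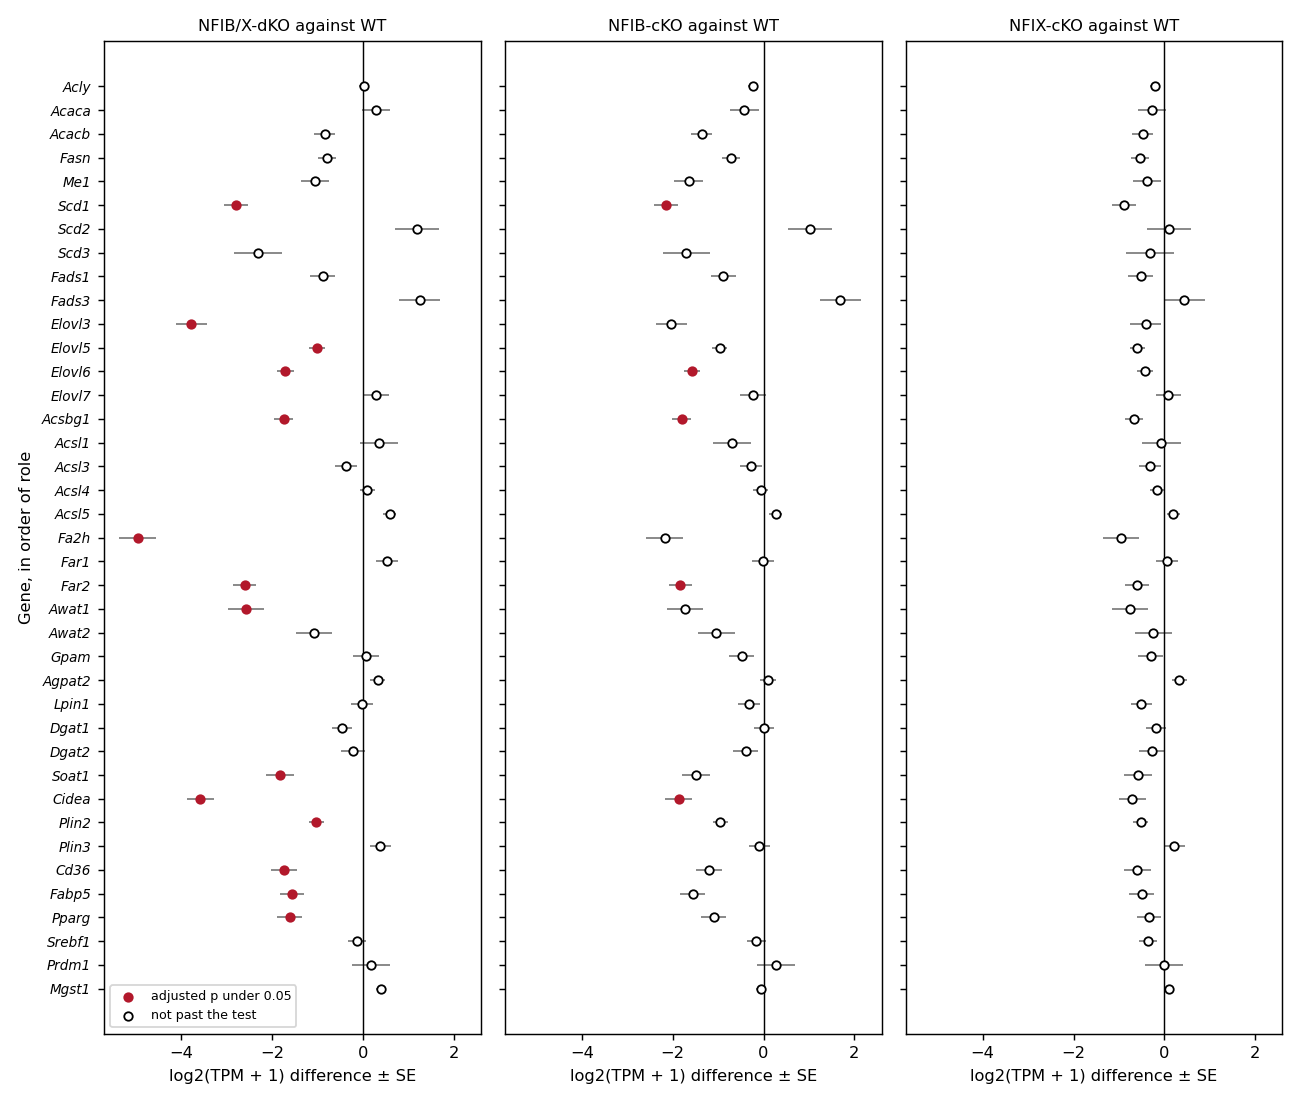
Log2(TPM + 1) difference from WT, with its standard error as a line, for each of the 39 tested lipid genes (rows, by role) in NFIB/X-dKO, NFIB-cKO and NFIX-cKO (panels). Filled symbols passed the test; Fa2h lies farthest from 0 at -4.96 in NFIB/X-dKO, and 0 symbols are filled in the NFIX-cKO panel.

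NFIB/X-dKO was also set against each of the other knockouts. Against NFIB-cKO 0 of the 39 passed by limma, 7 (17.9%) were at an unadjusted p under 0.05, 5 of them lower, near the 17.2% of all genes tested in either direction. By the adjusted p, 0.0713% of all genes tested fell, 0.156% rose and 0.227% did either. The NFIB/X-dKO mean of Fa2h was 5.22% of the NFIB-cKO mean, that of Elovl3 7.43% and those of Cidea and Cd36 14.8% each. Other sebocyte genes had higher shares, with 52.2% for Scd3, 53.3% for Far2 and 98.8% for Awat2. Fa2h differed by -2.78 ± 0.41 (limma adjusted p = 0.0796) and passed with a pseudocount of 0.1 (-3.99, limma adjusted p = 0.0328). The share was 104.5% for Acsbg1, 99.7% for Fabp5, 96.2% for Elovl5, 95.2% for Plin2 and 90.9% for Elovl6. With only these groups in the fit, 6 lipid genes were called lower and 5 higher, in a setting where 2573 genes passed. A non-additive contrast, the NFIB/X-dKO difference from NFIB-cKO minus the NFIX-cKO difference from WT, had 0 of 39 past limma's test and 7 (17.9%) at an unadjusted p under 0.05, against 9.43% of all genes tested. By the adjusted p, 0.0518% of all genes were below 0 and called, 0.0648% above 0 and called and 0.117% either. Its smallest adjusted p among the lipid genes was 0.502, for Fa2h (-1.82 ± 0.57).

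Against NFIX-cKO, 6 of 39 fell and 0 rose by limma, while 0.324% of all genes tested fell, 0.46% rose and 0.784% did either. With median-of-ratios scaling 61 genes of the whole table were lower and 43 higher, against 50 and 71 on TPM as deposited. The call of Scd1 ended with this scaling, and also with the decade as a covariate (-1.79, limma adjusted p = 0.0646). They were Fa2h (-4.00 ± 0.41), Elovl3 (-3.37 ± 0.34) and Cidea (-2.87 ± 0.29), each with a limma adjusted p of 0.0152, then Far2 (-1.997 ± 0.26, limma adjusted p = 0.032), Scd1 (-1.91 ± 0.27, limma adjusted p = 0.0389) and Elovl6 (-1.27 ± 0.18, limma adjusted p = 0.0389). Counts were held for both libraries of these groups, and edgeR's quasi-likelihood test on them also called 6 lower and 0 higher, of 40 tested. In that test 0.202% of all genes fell, 0.12% rose and 0.322% did either. These 6 were Scd1 (-2.21 ± 0.12), Elovl6 (-1.61 ± 0.12), Acsbg1 (-1.48 ± 0.11), Soat1 (-1.65 ± 0.12), Fabp5 (-1.25 ± 0.10) and Elovl3 (-5.92 ± 0.50), all at an edgeR adjusted p of 0.0457. The tests shared Scd1, Elovl3 and Elovl6. DESeq2 on the same counts called 15 lower, while it also called many more genes over the whole table than edgeR did (both counts are given in the last section). Without NFIB/X-dKO 33 or 36, 0 passed in either main test. Without NFIX-cKO 88, limma called 0 of these 6.

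Pooling the genotypes by Nfib sets the 4 libraries with both Nfib alleles floxed under Cre (NFIB/X-dKO and NFIB-cKO) against the other 4 (NFIX-cKO, which carries 1 floxed Nfib allele, and WT). Both sides then hold 2 libraries of the 30s and 2 of the 80s. They are not matched by gate, since the WT libraries alone were not gated on YFP. A total of 15 of the 39 fell and 0 rose, while 0.991% of all genes tested fell, 1.48% rose and 2.48% did either. With median-of-ratios scaling 188 genes of the whole table were lower and 154 higher, against 153 and 229 on TPM as deposited. The 15 comprised Me1 (-1.16 ± 0.22, limma adjusted p = 0.0455) and all 14 genes named for NFIB/X-dKO against WT, a comparison that shares libraries with it. Wide differences were those of Fa2h (-3.09 ± 0.29, limma adjusted p = 0.00495), Elovl3 (-2.70 ± 0.24, limma adjusted p = 0.00457) and Cidea (-2.37 ± 0.21, limma adjusted p = 0.00433). Acacb (-0.86 ± 0.17, limma adjusted p = 0.0509) and Scd3 (-1.84 ± 0.37, limma adjusted p = 0.0543) lay just outside the threshold. The sides did not overlap for 19 of the 39, lower (against 2.11% of all genes tested), and for Scd2 and Fads3, higher (against 6.84%). Group means stood in the order NFIB/X-dKO, NFIB-cKO, NFIX-cKO and WT, low to high, for 17 of the 39, or 43.6%, against 2.9% of all genes tested. Most of the 17 are among the genes called above, so this order is not separate evidence. Its step from NFIB/X-dKO to NFIB-cKO is also one from 30s to 80s, and 0 of the 39 passed there. That step includes near ties, such as Fabp5 with means of 43.4 and 43.5 TPM. Without NFIB/X-dKO 33 or 36 or NFIB-cKO 81 or 85, 7 lipid genes fell, and without NFIX-cKO 88 or 32 the counts were 8 and 10.

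Other lipid pathway genes were described from lists that exclude the 44. The share to set beside each list in NFIB/X-dKO against WT is that of all genes tested, of which 1.26% fell and 1.62% rose. Among other genes of fatty acid synthesis, activation and elongation, 4 of 18 tested fell in NFIB/X-dKO and 0 rose. Elovl4, the elongase of ultra-long barrier chains, had 20.8 and 17.7 TPM in NFIB/X-dKO, 19.9 and 17.5 in NFIB-cKO and 50.8 and 47.9 in NFIX-cKO, against 69.8 and 98.2 TPM in WT (-2.05 ± 0.19 for NFIB/X-dKO, limma adjusted p = 0.00477). Slc27a3, of the fatty acid transport family (-2.21 ± 0.25, limma adjusted p = 0.00784), and Acss2, the cytosolic acetyl-CoA synthetase (-1.44 ± 0.19, limma adjusted p = 0.0133), fell too. The list of lipolysis had 1 fall and 0 rises among 10 tested, and the gene that fell was Mgll, the monoglyceride lipase (-1.51 ± 0.22, limma adjusted p = 0.0208). None of 22 tested genes of fatty acid oxidation passed, with a median difference of 0.16, nor any of 12 other glycerolipid, wax and droplet genes or of 15 genes of SREBP, LXR and PPAR control. Insig1, a sterol-sensing brake on SREBP, was the nearest of these at -1.11 ± 0.23 (limma adjusted p = 0.0594). In NFIB-cKO the falls in these 5 lists were 2 of 18 (Elovl4 and Acss2) and 1 of 10 (Mgll), with 0 in the others. There 0.428% of all genes tested fell. In NFIX-cKO 0 passed in any of the lists, against 0.149% of all genes tested.

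Markers of the cells that carry these lipids, or that a sort of skin could admit, were summed in each library. The 9 sebocyte genes that are among the 44 (Scd3, Elovl3, Awat1, Awat2, Cidea, Mc5r, Pparg, Fa2h and Far2) summed to 10.8 and 7.14 TPM in NFIB/X-dKO, 26.8 and 34.2 in NFIB-cKO and 72.8 and 93.0 in NFIX-cKO, against 95.6 and 184 TPM in WT. This sum leaves out Mgst1, a choice made after its values were seen. Of its 9 genes, 6 are among the 14 that fell in NFIB/X-dKO, so its low level there is not separate evidence. With Mgst1, the listed 10 genes summed to 324 and 331 TPM in NFIB/X-dKO, 273 and 252 in NFIB-cKO and 333 and 349 in NFIX-cKO, against 339 and 424 TPM in WT. NFIB-cKO was then lowest, and NFIB/X-dKO lay near WT 34 and NFIX-cKO. The 7 sebaceous gland and duct genes outside the 44 summed to 266 and 242 TPM in NFIB/X-dKO, 246 and 305 in NFIB-cKO and 383 and 274 in NFIX-cKO, against 287 and 412 TPM in WT. Most of it was the duct keratin gene Krt79, which did not pass in NFIB/X-dKO against WT (-0.54 ± 0.28, limma adjusted p = 0.371). Of the 6 tested, 1 fell, Hsd3b6, a steroid dehydrogenase gene of sebaceous glands (-2.37 ± 0.39, limma adjusted p = 0.0273), while 1.26% of all genes tested fell. The 10 adipocyte markers summed to between 5.15 and 11.5 TPM, and their defining genes Adipoq and Plin1 did not exceed 0.02 and 0.06 TPM.

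The 9 fibroblast markers summed to 108 and 125 TPM in NFIB/X-dKO, 192 and 106 in NFIB-cKO and 41.0 and 70.8 in NFIX-cKO, against 33.5 and 49.0 TPM in WT. Of the 3 tested, Col1a1 rose in NFIB/X-dKO against WT (1.97 ± 0.30, limma adjusted p = 0.0219) and 0 fell, while 1.62% of all genes tested rose. The 3 did not move together, as the lowest difference among them was -1.63. Thy1 lay between 47.0 and 105 TPM in NFIB/X-dKO and NFIB-cKO and between 8.99 and 28.4 TPM in NFIX-cKO and WT. The defining Col3a1 did not exceed 0.45 TPM and Dcn 0.34 TPM in any library. Interfollicular epidermis markers ranged from 378 to 2141 TPM, in the 30s from 1286 to 2141 and in the 80s from 378 to 706, and so followed the decade of the animal number. Endothelial markers ranged from 1.76 to 2.89, immune markers from 32.7 to 61.3 and melanocyte markers from 64.3 to 112 TPM. The 10 immediate early and heat shock genes, which respond to tissue handling, summed to 16768 and 19552 TPM in NFIB/X-dKO, 22283 and 21391 in NFIB-cKO and 10478 and 21240 in NFIX-cKO, against 27419 and 25476 TPM in WT. Both WT libraries were above all 6 others. In NFIB/X-dKO against WT, 1 of the 10, Hspa1b, fell (-0.92 ± 0.18, limma adjusted p = 0.0458), while 1.26% of all genes tested fell. The median difference of the 10 was -0.65 in NFIB/X-dKO, against -0.36 in NFIB-cKO and -0.86 in NFIX-cKO, where 0 passed. The part of the sebaceous, duct, fibroblast, stem cell and handling signals in the falls of the lipid genes was not tested.

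**Figure D4:**
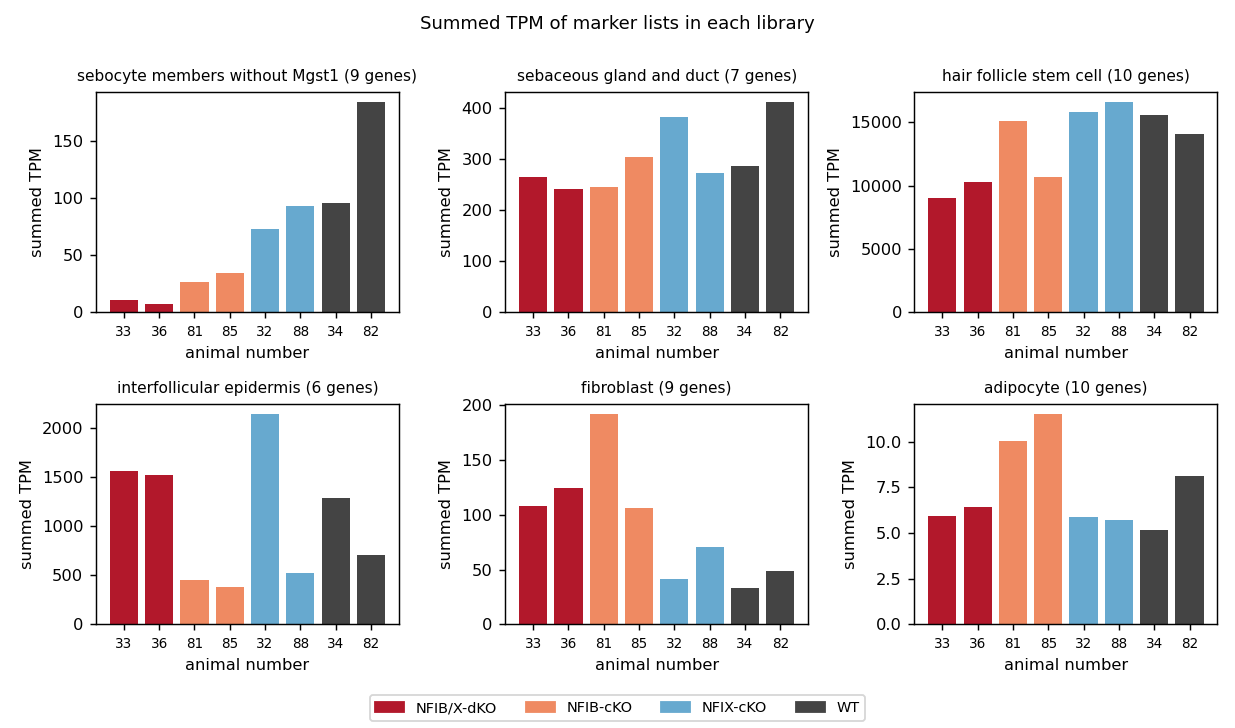
Summed TPM of 6 marker lists (panels, each with an axis that starts at 0) in each of the 8 libraries, by animal number and coloured by group from NFIB/X-dKO to WT. The sebocyte sum without Mgst1 lies between 7.14 and 184 TPM, lowest in NFIB/X-dKO and highest in WT (with Mgst1, not drawn, it lies between 252 and 424 TPM and is lowest in NFIB-cKO), and the adipocyte sum between 5.15 and 11.5 TPM.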

How the data were processed

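The authors deposited TPM for all 8 libraries, with 46517 genes and 92 spike-in rows, and gene tables with expected counts for 5 libraries. Reads were aligned to mm10 (GRCm38) and quantified with RSEM 1.2.30 and Bowtie2 2.2.9, per the submitters' processing notes. The annotation release was not given in the sources used here. RSEM divides reads shared by similar genes by estimate, and TPM is relative within a library.

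Genes with at least 1 TPM in at least 2 libraries (15434) were tested by limma 3.58.1 (R 4.3.3) with a variance trend on log2(TPM + 1), all 8 libraries in 1 fit (4 residual and 3.10 prior degrees of freedom), Benjamini-Hochberg adjustment and a threshold of 0.05. A fold on this scale understates the change of low genes. Expected counts were rounded and tested by edgeR 4.0.16 (quasi-likelihood, TMM, filterByExpr, 18349 genes) for NFIB/X-dKO against NFIX-cKO, with DESeq2 1.42.0 as an alternative. The spike-in rows took 0 expected counts and entered no test. Titles named the library of every column (0 unmatched). No pair of libraries held identical values, and log2 TPM correlated between 0.937 and 0.985. No animal number recurs across groups, so nothing pairs the libraries. The scripts were tested on simulated data. The depth of 3 libraries is unknown, so no counting interval was computed, and counts cover counting error only.

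The 44 genes, the pathway and marker lists and the tests were chosen with earlier results of these data known. Named in full are the genes past the test against WT or in the pooled Nfib contrast and the 2 most abundant of each role, with up to 3 per pathway list of the smallest p. Values of other genes named in full were chosen after they were seen. Gene positions are from GENCODE M21 and promoters from RefSeq (GRCm38.p6). Alternatives were other pseudocounts, filters, scalings, sample sets and the decade of the animal number. A further pathway list is not reported here.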

Additional observations from a re-analysis of the deposited data

How the results depend on the processing

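No paired analysis was possible because the groups share no animal number. Direction was checked for the lipid gene differences that passed or were wide, and 0 of these reversed. Smaller differences were not checked. The median of all genes tested did change sign for NFIB/X-dKO against NFIB-cKO, from 0.15 to -0.07 with the decade as a covariate. Counts below are of genes called, then of lipid genes that fell where these moved. With only the compared groups fitted, NFIB/X-dKO against WT gave 192 genes (445 as reported) and 6 lipid genes (14), NFIB-cKO against WT 36 (111) and 0 (5), NFIX-cKO against WT 8 (23), NFIB/X-dKO against NFIB-cKO 2573 (35) with 6 lower and 5 higher (0 and 0), and NFIB/X-dKO against NFIX-cKO 15 (121) and 0 (6). With no filter on low values, NFIB/X-dKO against WT gave 270 and 7, NFIB-cKO against WT 29 and 0, NFIB/X-dKO against NFIB-cKO 71, NFIB/X-dKO against NFIX-cKO 3 lipid genes, the non-additive contrast 61 (18) and the pooled Nfib contrast 210 (382) and 7 (15). A minimum of 5 TPM gave 17 genes for NFIB/X-dKO against NFIB-cKO and 10 for the non-additive contrast. A pseudocount of 0.1 gave 23 and 1 for NFIB/X-dKO against NFIB-cKO and 9 for the non-additive contrast. Scaling left 2 lipid genes in NFIB-cKO against WT. With the decade as a covariate, NFIB-cKO against WT had 200 and 10, NFIX-cKO against WT had 44, NFIB/X-dKO against NFIB-cKO had 22, and the pooled contrast had 1214 with 1 lipid gene higher. Within decades, NFIB/X-dKO against WT had 1 lipid gene higher, and NFIB-cKO against WT had 45 genes and 3 lipid genes. For edgeR (59 genes and 6 lipid genes), DESeq2 gave 830 and 15, library totals 36 and 3, and no filter 202 and 12.

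Leaving out 1 library at a time, NFIB/X-dKO against WT had 38 to 580 genes and 2 to 15 lipid genes, NFIB-cKO against WT had 13 to 152 and 0 to 6, NFIX-cKO against WT had 13 to 18, NFIB/X-dKO against NFIB-cKO had 9 to 70 and 0 to 1, NFIB/X-dKO against NFIX-cKO had 6 to 105 and 0 to 7, the non-additive contrast had 6 to 16, and the pooled contrast had 63 to 368 with 7 to 14 lower and 0 to 1 higher. For edgeR it gave 0 to 6939 genes, with 0 to 20 lower and 0 to 5 higher. A group of 1 library was taken to vary like the others. The cause of these shifts was not tested. With 2 libraries a group and at most 49 expected counts for Fa2h, Elovl3, Cidea, Awat1, Pparg and Cd36 in NFIB/X-dKO, depth limits how low these genes can be placed.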
